A study of Mus musculus with 4 samples.

Results

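Liver sinusoidal endothelial cells line the blood channels between the hepatocyte plates, and their transcripts were followed here through 10 genes taken by name from the deposited table of 25655 genes: Stab1, Stab2, Lyve1, Clec4g, Fcgr2b, Pecam1, Kdr, Gpr182, Wnt2 and Rspo3. All 10 were found once and all 10 passed the filter on low counts. The 4 liver libraries came from 2 groups of male mice, HFD-WT and HFD-KO, with 2 libraries in each. HFD-WT mice were ADAR2+/+ and HFD-KO mice were ADAR2-/-, and both groups carried the GluR-B R/R allele, an edited form of the glutamate receptor gene that lets animals without ADAR2 survive. The mice descended from heterozygous intercrosses on a B6129S background and received a high-fat diet for 12 weeks from 5 weeks of age, so no group without the diet is part of these data. The deletion was carried by every cell and was not limited to endothelium or hepatocytes. A figure legend of the study names more mice per group for the sequencing than there are libraries here. The sources do not say whether a library held RNA of 1 mouse or of several, so the p-values refer to libraries rather than mice. The spread between libraries was estimated partly from all genes tested.

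Sinusoidal endothelial cells have open pores without a basement membrane and take up waste from the blood through scavenger and lectin receptors, among them the stabilins, Lyve1 and the Fc receptor Fcgr2b. They depend on VEGF from hepatocytes, which acts through Kdr, and in turn send signals to the hepatocytes. Near the central vein endothelial Wnt2 and Rspo3 maintain the Wnt activity that sets the pericentral genes of hepatocytes. In chronic liver disease these cells can lose their pores and scavenger receptors, a change known as capillarization.

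Total counts ranged from 24480798 to 28691330 per library, and the 10 genes together held between 0.0314% and 0.0374% of them. A single member had between 59 and 1958 reads in a library. Levels of a gene are given per library as CPM, read counts scaled to a common library total with TMM, which corrects for differences in RNA composition, with replicate 1 before replicate 2. Differences are log2 fold changes, negative where HFD-KO was lower, from edgeR's quasi-likelihood test, and an adjusted p accounts for all 12967 genes tested. Adarb1, which encodes ADAR2, had 15.7 and 19.8 CPM in HFD-WT and 6.23 and 9.55 CPM in HFD-KO livers. Its difference on the log2 scale was -1.17 (SE 0.20, adjusted p = 0.159 by edgeR and 0.00067 by DESeq2's Wald test). Both HFD-KO libraries thus lay below both HFD-WT libraries, with reads on the gene still counted in each. The tissue label was met by the hepatocyte markers, led by Alb with a mean of 55130 TPM and Apoa1 with 10940 TPM. Endothelial transcripts were a minor part of this RNA, and in whole liver fewer cells of a type and less RNA per cell cannot be told apart.

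The 10 genes lie on 8 chromosomes, and by the positions in the table all 10 are on the minus strand, where 49.8% of all listed genes lie. Stab2, Gpr182 and Rspo3 are on chromosome 10, as is Adarb1 (77126560 to 77254104). The gene nearest to it was Stab2 (86677062 to 86843889), at a distance of 9.42 Mb, followed by Rspo3 (29328412 to 29411863) at 47.7 Mb and Gpr182 (127583145 to 127587601) at 50.3 Mb. Of the others, Lyve1 spans 110449814 to 110462446 on chromosome 7, Stab1 spans 30860970 to 30890598 on chromosome 14, and Clec4g spans 3757064 to 3770651 on chromosome 8. These positions are those of the deposited table, whose processing notes name both mm10 and GRCm39, and 0 of the 10 equal the positions of the same genes in GENCODE M21 on the older build GRCm38.

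RefSeq promoter sequences on GRCm38.p6 were matched by symbol for 6 of the 10 genes: Fcgr2b, Kdr, Wnt2, Clec4g, Stab2 and Stab1. The 250 bases before the transcript start were searched on both strands for AGGAAG, a core site of ETS factors such as ERG, and for AGATAA, a core site of GATA factors such as GATA4, factors known to act in endothelium. AGGAAG or its reverse complement was present in 3 of the 6 windows, against 29.5% of the 32851 promoter windows of the table, and AGATAA was present in 0 of the 6, against 9.99%. The windows of Stab1 and Stab2 are shown because these are paralogs whose differences between genotypes are set side by side here, and that of Clec4g because it had the highest level of the 10 genes. These 3 windows are also the 3 that held AGGAAG or its reverse complement. The windows of Fcgr2b, Kdr and Wnt2, which are not shown, had no match. The windows are written 5′ to 3′ on the strand of the gene, with AGGAAG and its reverse complement CTTCCT in capitals.
Stab1 (chr14:31168642-31168891, minus strand): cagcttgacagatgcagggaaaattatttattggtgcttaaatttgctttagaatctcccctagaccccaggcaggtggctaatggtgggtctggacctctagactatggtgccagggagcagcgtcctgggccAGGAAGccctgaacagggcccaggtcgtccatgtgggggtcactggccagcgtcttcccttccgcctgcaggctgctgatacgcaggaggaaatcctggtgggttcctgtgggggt
Stab2 (chr10:87007943-87008192, minus strand): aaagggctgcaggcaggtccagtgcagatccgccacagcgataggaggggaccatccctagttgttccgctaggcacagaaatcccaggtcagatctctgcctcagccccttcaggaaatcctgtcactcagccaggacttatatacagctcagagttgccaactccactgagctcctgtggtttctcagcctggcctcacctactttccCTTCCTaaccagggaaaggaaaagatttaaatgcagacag
Clec4g (chr8:3720652-3720901, minus strand): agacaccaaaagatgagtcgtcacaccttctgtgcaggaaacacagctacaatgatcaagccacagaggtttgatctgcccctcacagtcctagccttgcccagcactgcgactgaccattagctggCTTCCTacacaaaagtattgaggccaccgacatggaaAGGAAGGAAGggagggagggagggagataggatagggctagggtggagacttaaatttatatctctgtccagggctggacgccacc
Stab1 and Stab2 each held 1 match and Clec4g held 3, the last 2 of which overlap. A match of these letters is a description of the window and not a known binding site.

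Levels were compared between genes in the authors' TPM, a scaled transcript abundance that accounts for transcript length. Clec4g, a C-type lectin of sinusoidal endothelium, had the highest level, with 29.7 and 38.4 TPM in HFD-WT and 32.9 and 35.0 TPM in HFD-KO livers. Fcgr2b followed with 25.2 to 30.2 TPM over the 4 libraries, and although its range touched that of Clec4g, Clec4g was higher in 4 of 4 libraries. A middle group of Stab2, Stab1, Kdr, Gpr182, Lyve1 and Pecam1 had means between 15.5 and 11.2 TPM, and neighbours in this group overlapped in their ranges. Rspo3 and Wnt2, the secreted ligands, were lowest with means of 3.35 and 2.33 TPM, and Rspo3 was higher than Wnt2 in 4 of 4 libraries by 1.08 to 1.69 times. Of all genes tested, 80.8% had a lower mean TPM than Clec4g and 26.1% had a lower mean TPM than Wnt2.

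**Figure D1:**
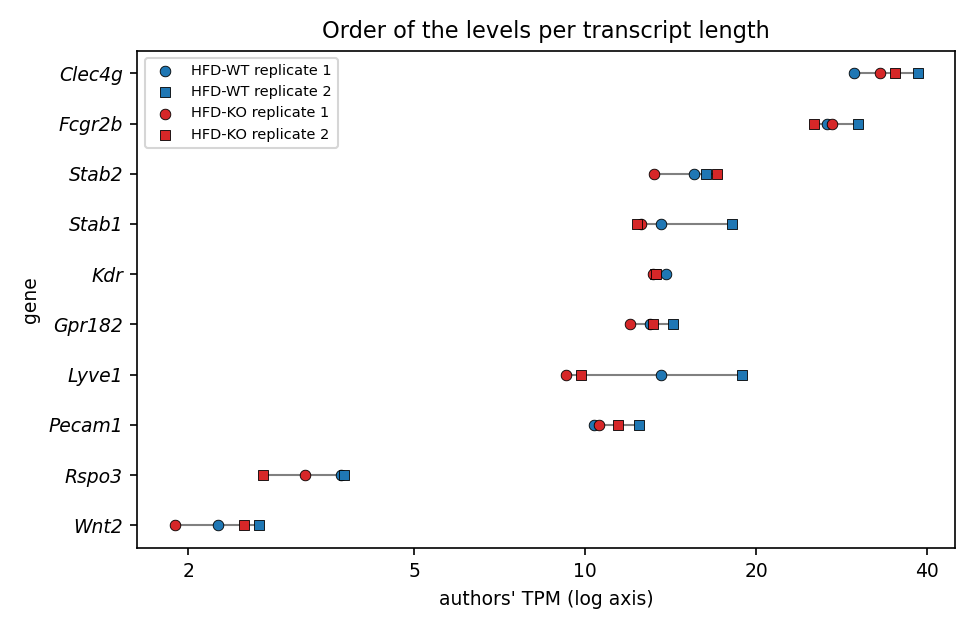
Level of each of the 10 genes in the authors' TPM (log axis), genes ordered by their mean, with 1 point per library (blue HFD-WT, red HFD-KO, circles replicate 1, squares replicate 2) and a grey line over the range. Clec4g and Fcgr2b lie above 25 TPM in all 4 libraries, 6 genes lie between 9.23 and 18.9 TPM, and Rspo3 and Wnt2 lie below 4 TPM.

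Among the scavenger receptors, Lyve1, a hyaluronan receptor of sinusoidal and lymphatic endothelium, was the member with the largest difference. It had 19.8 and 26.8 CPM in HFD-WT livers and 14.02 and 14.53 CPM in HFD-KO livers, from 573, 736, 369 and 347 reads. Both HFD-KO libraries lay below both HFD-WT libraries, and the distance between the genotypes was larger than that between replicates, which was 0.44 on the log2 scale in HFD-WT and 0.05 in HFD-KO. The log2 fold change was -0.70 (SE 0.15, 95% interval -1.05 to -0.36), a fitted change of -38.6% relative to HFD-WT. The unadjusted p was 0.0016 and the adjusted p = 0.233 by edgeR, so Lyve1 did not pass the threshold of 0.05 over all genes tested. Its adjusted p was 0.0355 by DESeq2's Wald test and differed widely between the edgeR fits that left out 1 library. Without HFD-WT replicate 2, the library with the highest value, the log2 fold change of Lyve1 was -0.47. It was -0.91 without HFD-WT replicate 1. Without HFD-KO replicate 1 or HFD-KO replicate 2 it was -0.68 or -0.73. These last fits take the spread from the HFD-WT pair alone and called many more genes of the whole table, 376 higher and 329 lower without HFD-KO replicate 1 and 226 higher and 185 lower without HFD-KO replicate 2, against 7 and 3 with all libraries.

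Stab1 and Stab2 encode large paralogous receptors that clear hyaluronan, modified lipoproteins and other ligands from the blood. Stab1 had 54.6 and 71.2 CPM in HFD-WT and 52.6 and 50.5 CPM in HFD-KO livers. The groups did not overlap, but HFD-WT replicate 1 was nearer to the HFD-KO libraries than to HFD-WT replicate 2. The log2 fold change of Stab1 was -0.29 (SE 0.13, 95% interval -0.59 to 0.01, adjusted p = 0.572 by edgeR), and it was -0.08 without HFD-WT replicate 2 and -0.47 without HFD-WT replicate 1. Stab2 had 64.3 and 65.8 CPM in HFD-WT and 57.0 and 71.8 CPM in HFD-KO livers, so that the HFD-WT values lay between those of HFD-KO. Its log2 fold change was -0.02 (SE 0.12, 95% interval -0.29 to 0.26, adjusted p = 0.978 by edgeR). Counted per Stab2 read in the same library, Stab1 had 0.850 and 1.08 reads in HFD-WT and 0.923 and 0.704 in HFD-KO livers, which overlap.

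Like Lyve1, Stab1 and Stab2, the other receptors that bind material from the blood did not pass the test by edgeR. Clec4g had 36.3 and 45.8 CPM in HFD-WT and 42.1 and 43.6 CPM in HFD-KO livers, with both HFD-KO values between those of HFD-WT (log2 fold change 0.06, SE 0.12, adjusted p = 0.915 by edgeR). Fcgr2b, the inhibitory IgG receptor that removes small immune complexes, had 51.0 and 56.3 CPM in HFD-WT and 54.4 and 49.1 CPM in HFD-KO livers (log2 fold change -0.05, SE 0.09, adjusted p = 0.903 by edgeR). The 95% intervals of these differences reached from -0.22 to 0.34 for Clec4g and from -0.27 to 0.17 for Fcgr2b.

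**Figure D2:**
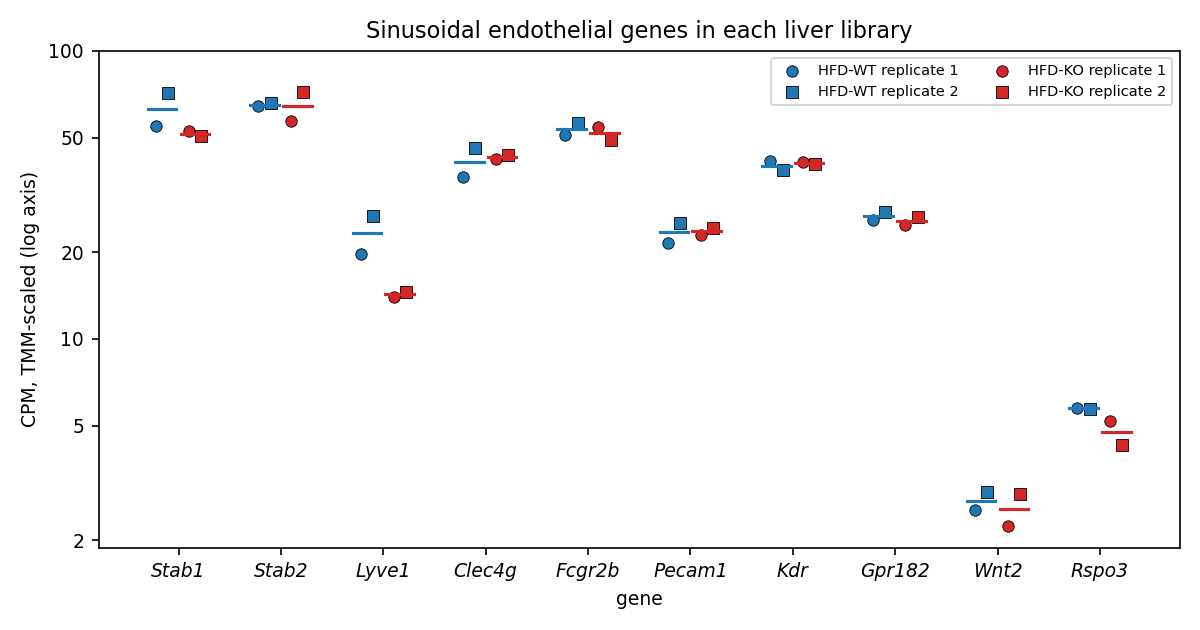
Level of each of the 10 genes in CPM with TMM scaling (log axis), with 1 point per library, HFD-WT in blue and HFD-KO in red, and a bar at the mean of each group of 2. Lyve1 stands apart with HFD-KO values of 14.02 and 14.53 CPM below HFD-WT values of 19.8 and 26.8 CPM, while for 7 genes the groups overlap.

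Pecam1, the adhesion molecule CD31 of endothelial junctions, which is also present on platelets and leukocytes, had 21.6 and 25.3 CPM in HFD-WT and 23.0 and 24.2 CPM in HFD-KO livers. Its log2 fold change was 0.01 (SE 0.10, 95% interval -0.23 to 0.25, adjusted p = 0.983 by edgeR). Kdr, the main signalling receptor for VEGF in endothelium, had 41.3 and 38.5 CPM in HFD-WT and 41.0 and 40.3 CPM in HFD-KO livers. With a log2 fold change of 0.03 (SE 0.08, 95% interval -0.17 to 0.22, adjusted p = 0.954 by edgeR), it had the smallest SE of the 10 genes. Gpr182, an atypical receptor of endothelium that takes up chemokines, had 25.9 and 27.6 CPM in HFD-WT and 24.8 and 26.6 CPM in HFD-KO livers (log2 fold change -0.06, SE 0.09, 95% interval -0.26 to 0.15, adjusted p = 0.884 by edgeR). For these 3 genes the groups overlapped.

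Wnt2 and Rspo3 are the angiocrine ligands of the 10 genes, a Wnt protein and an R-spondin that amplifies Wnt signals by keeping the receptors on the cell surface. Wnt2 had 2.55 and 2.94 CPM in HFD-WT and 2.24 and 2.89 CPM in HFD-KO livers, from 74, 81, 59 and 69 reads, and the groups overlapped. At this depth the counting error alone was 11.11% to 13.02% of a library's value, and the 95% interval of its log2 fold change of -0.10 (SE 0.24, adjusted p = 0.929 by edgeR) reached from -0.67 to 0.46. Rspo3 had 5.77 and 5.71 CPM in HFD-WT and 5.20 and 4.27 CPM in HFD-KO livers, from 167, 157, 137 and 102 reads. Both HFD-KO libraries lay below both HFD-WT libraries, but the log2 fold change of -0.27 (SE 0.17, 95% interval -0.68 to 0.13, adjusted p = 0.694 by edgeR) did not pass the test. The intervals rest on the spread between 2 libraries per group, estimated partly from all genes tested, as well as on these read numbers.

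The genes that receive or report this Wnt signal were listed separately. Of 16 tested ligands, receptors and feedback genes of the Wnt and R-spondin pathway, 0 passed an adjusted p of 0.05 by edgeR, 2 were higher and 1 was lower at an unadjusted p under 0.05, and the median log2 fold change was 0.12. Without HFD-KO replicate 2, 6 were higher at an unadjusted p under 0.05 and 4 at an adjusted p under 0.05 by edgeR, with a median of 0.23, and without HFD-WT replicate 2, 1 was higher, with a median of 0.05. Tbx3, a transcription factor induced by Wnt in pericentral hepatocytes, had 36.7 and 35.5 CPM in HFD-WT and 54.2 and 54.5 CPM in HFD-KO livers (log2 fold change 0.59, SE 0.08, adjusted p = 0.069 by edgeR and 0.00087 by DESeq2's Wald test). Rnf43, a ligase that removes Wnt receptors, had a log2 fold change of 0.34 and Fzd4, a Wnt receptor also used by endothelium, had one of -0.25, with adjusted p = 0.546 and 0.522 by edgeR. The most abundant genes of the list, the co-receptor gene Lrp5 and Notum, which encodes an enzyme that inactivates Wnt, had log2 fold changes of -0.07 and 0.12.

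Wnt9b, the other Wnt gene of central vein endothelium, had 1.83 and 1.60 CPM in HFD-WT and 1.37 and 1.42 CPM in HFD-KO livers (log2 fold change -0.30, adjusted p = 0.793 by edgeR). Of the 10 pericentral targets in hepatocytes, 0 had an unadjusted p under 0.05 by edgeR and 0 by DESeq2's Wald test, and their median log2 fold change was 0.05. Without HFD-KO replicate 2, 2 of them were higher at an adjusted p under 0.05 by edgeR. At an unadjusted p under 0.05, 1 was higher without HFD-WT replicate 1, 1 was higher without the filter on low counts, and 1 was lower without HFD-KO replicate 1. The most abundant of them, Cyp2e1 and Oat, had log2 fold changes of 0.06 and 0.10. Glul, Axin2 and Lgr5, named after their values were seen because they are the usual readouts of this signal, had log2 fold changes of -0.06, 0.03 and 0.53. For Lgr5, whose adjusted p was 0.603 with all libraries and 0.028 without HFD-KO replicate 2 by edgeR, the groups overlapped, with 5.49 and 3.96 CPM in HFD-WT and 8.32 and 5.36 CPM in HFD-KO livers.

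Across the 10 genes, edgeR gave 0 with an adjusted p under 0.05, where 0.0771% of all genes tested passed, 0.0231% in the lower direction. DESeq2's Wald test gave 1, Lyve1, where 0.904% passed, and edgeR without the filter on low counts also gave 1, Lyve1, where 0.936% passed. At an unadjusted p under 0.05 by edgeR, 1 of the 10, Lyve1, was lower and 0 were higher, against 4.73% and 4.25% of all genes tested. Both HFD-KO libraries lay below both HFD-WT libraries for 3 of the 10, Lyve1, Stab1 and Rspo3, which is near the 20.3% of all genes tested for which this was so, and they lay above for 0 of the 10, against 20.5%. The median log2 fold change of the 10 genes was -0.05, with 7 below 0 and 3 above, beside 0.01 over all genes tested. This lean rested on single libraries: it was 5 below and 5 above without HFD-WT replicate 2 (median -0.0012) or HFD-KO replicate 1 (median 0.0044), and 9 below and 1 above without HFD-WT replicate 1 (median -0.12). For 6 genes, namely Stab2, Clec4g, Fcgr2b, Pecam1, Kdr and Gpr182, the estimate was within 0.1 of 0 and the whole 95% interval lay within 0.5 of 0 on the log2 scale. Among all genes tested, 1.95% had a lower log2 fold change than Lyve1 and 0.656% had a smaller p.

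**Figure D3:**
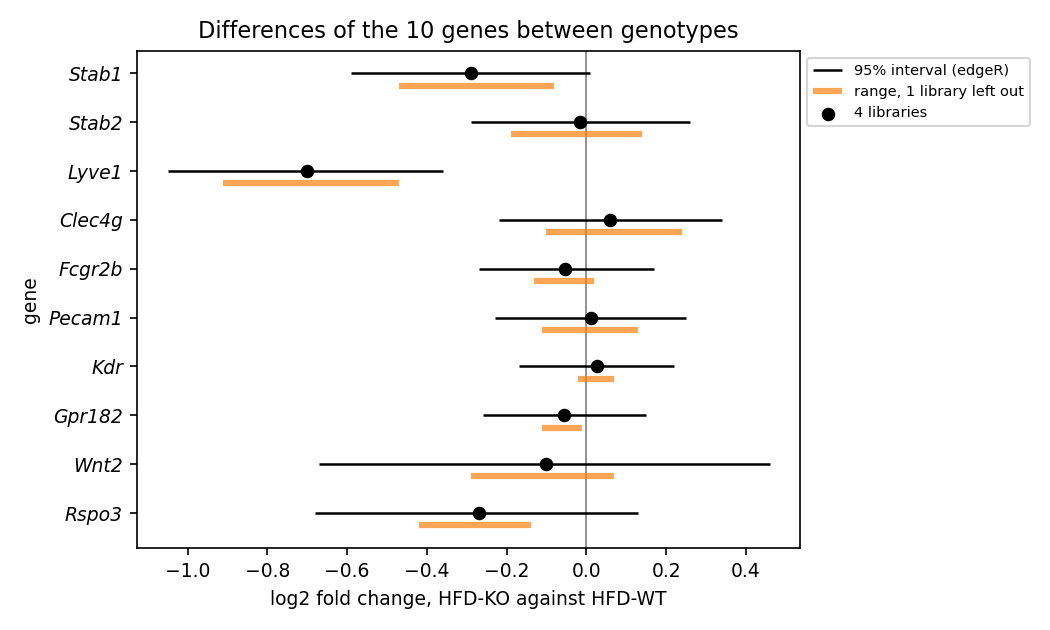
Difference between HFD-KO and HFD-WT livers as a log2 fold change for the 10 genes (black points) with the 95% interval of the edgeR fit (black lines) and the range of the estimate when 1 library at a time was left out (orange bars). Lyve1 is the gene whose interval, -1.05 to -0.36, excludes 0, and the orange bar of Stab1 reaches from -0.47 to -0.08.

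Summed over the 10 genes, the level was 323 and 366 CPM in HFD-WT and 316 and 328 CPM in HFD-KO livers, and the groups overlapped (exact two-sided permutation test, p = 0.667, where 0.333 is the smallest that 2 libraries against 2 allow). Without Lyve1 and Stab1 the sum was 249 and 268 CPM in HFD-WT and 250 and 263 CPM in HFD-KO livers. Since reads of the same library share its scaling, the members were also counted against each other. Per read of the other 9 genes, Lyve1 had 0.0652 and 0.0789 reads in HFD-WT and 0.0464 in both HFD-KO livers, so its share of the reads of these genes was lower in both HFD-KO libraries. Per Kdr read it had 0.479 and 0.695 reads in HFD-WT and 0.342 and 0.360 in HFD-KO livers, and per Stab2 read 0.308 and 0.407 in HFD-WT and 0.246 and 0.203 in HFD-KO livers.

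Lyve1 and Stab1 are also transcribed by some macrophages, and markers of resident liver macrophages, the Kupffer cells, were set beside them. The summed level of 13 Kupffer cell markers was 383 and 491 CPM in HFD-WT and 316 and 309 CPM in HFD-KO livers, with HFD-WT replicate 2 highest. This library was also highest for Lyve1, Stab1, Pecam1, Clec4g, Fcgr2b, Gpr182 and Wnt2, but not for Stab2, Kdr and Rspo3. It was highest for the sums of the stellate cell markers and of the other endothelial genes too, so this trait is not particular to macrophage markers. Of the 13 markers, 12 had a log2 fold change below 0, with a median of -0.48. By edgeR 0 passed an adjusted p of 0.05 and 9 had an unadjusted p under 0.05, namely Clec4f, Vsig4, Cd5l, Adgre1, Csf1r, Folr2, C1qa, C1qb and C1qc, with log2 fold changes from -0.75 for Folr2 to -0.30 for C1qa. By DESeq2's Wald test 2 passed, Vsig4 and Cd5l. Without HFD-WT replicate 2 the count at an unadjusted p under 0.05 was 3 of 13 and the median -0.27. At an adjusted p under 0.05 by edgeR, 8 were lower and 1 was higher without HFD-KO replicate 1, 4 were lower without HFD-KO replicate 2, and 3 were lower without the filter on low counts. No marker of this list was at 0, the lowest being Timd4 with 309 reads over the 4 libraries. Per read of the Kupffer cell markers, Lyve1 had 0.0517 and 0.0546 reads in HFD-WT and 0.0444 and 0.0470 in HFD-KO livers, a mean change of -13.97%, against -35.6% per read of the other 9 genes. For Stab1 the same ratio was 0.143 and 0.145 in HFD-WT and 0.167 and 0.163 in HFD-KO livers, higher in both HFD-KO libraries. The other members were not set against these markers singly. The part of macrophage RNA in the values of Lyve1, Stab1 or any other member was not tested.

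Markers of other cells were set beside the members in the same way. The 12 stellate cell markers summed to 571 and 638 CPM in HFD-WT and 518 and 423 CPM in HFD-KO livers, with 10 of 12 log2 fold changes below 0 and a median of -0.27. By edgeR 0 of them passed an adjusted p of 0.05 and 5 had an unadjusted p under 0.05, Reln, Dcn, Col1a1, Col3a1 and Colec11, all with lower values in HFD-KO livers, with Col1a1 at -0.87, and without HFD-WT replicate 2 the count was 3. Without HFD-KO replicate 1, 7 stellate markers were lower and 1 was higher at an adjusted p under 0.05 by edgeR, and without HFD-KO replicate 2, 2 were lower. By DESeq2's Wald test 2 passed, Reln and Col1a1, while the abundant Ecm1 had a log2 fold change of -0.24. No stellate marker was at 0, and the lowest was Hgf with 264 reads over the 4 libraries. Of the 4 lymphatic endothelial markers, cells that also make Lyve1, 0 had an unadjusted p under 0.05 by either tool and 4 of 4 had a log2 fold change above 0, with a median of 0.35. Without HFD-WT replicate 2 or HFD-KO replicate 1, 3 were above 0 and 1 below, with medians of 0.12 and 0.13, and without HFD-KO replicate 2 the median was 0.61 and 1, Prox1, passed an adjusted p of 0.05 by edgeR. The most abundant of these was Prox1, which hepatocytes also transcribe, at 0.29, while Ccl21a had 0.618 to 1.29 CPM and Mmrn1 had 37 reads over the 4 libraries. The 6 hepatocyte markers summed to between 69000 and 82400 CPM, and Alb and Apoa1 had log2 fold changes of 0.13 and 0.16.

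**Figure D4:**
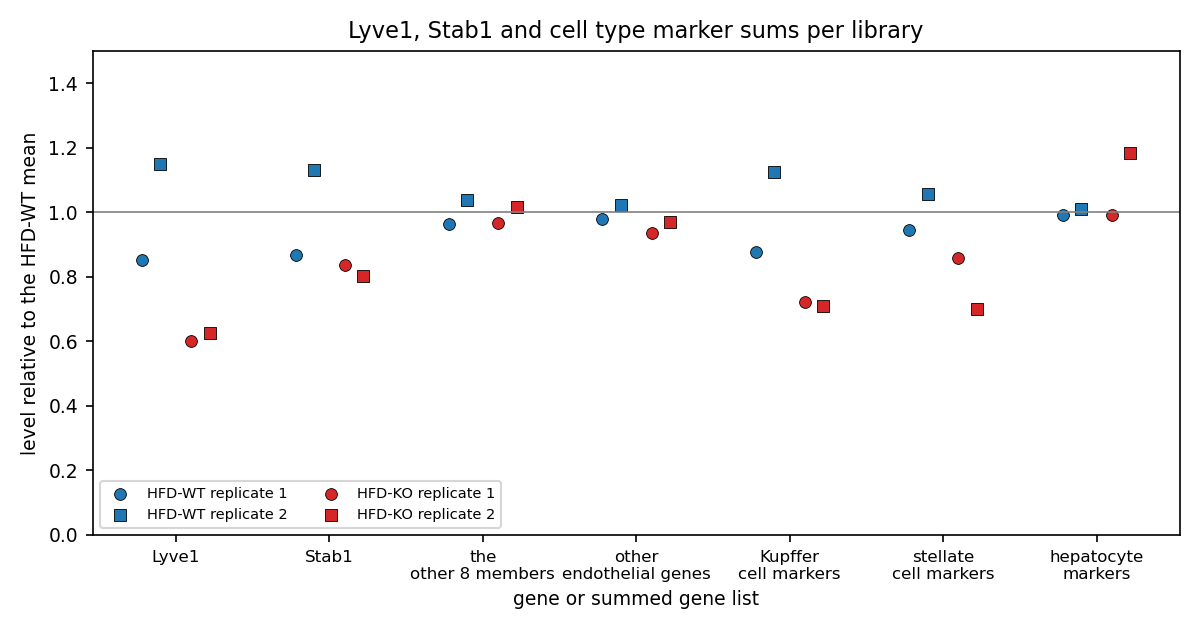
Level of Lyve1, of Stab1 and of summed gene lists in each library relative to the mean of the 2 HFD-WT libraries, which is drawn at 1. The sum of the other 8 members stays between 0.963 and 1.04 in all libraries. Lyve1 is at 0.602 and 0.624 in the HFD-KO libraries, and the sum of the Kupffer cell markers is at 0.723 and 0.708. The sum of the other endothelial genes includes Ctsl, which many cells make.

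Blood and duct markers had 0 genes with an adjusted p under 0.05 by edgeR. Of 5 red blood cell genes, 3 were higher in HFD-KO livers at an unadjusted p under 0.05 by edgeR, Hba-a1, Hba-a2 and Hbb-bs, with log2 fold changes of 0.51 to 0.62, the sum was highest in HFD-KO replicate 2, at 1146 CPM, and the count was 0 without HFD-WT replicate 2. Without HFD-KO replicate 1, 4 of the 5 were higher at an adjusted p under 0.05 by edgeR. Of 6 cholangiocyte markers, Spp1, which other liver cells also transcribe, had a log2 fold change of -0.62 (adjusted p = 0.313 by edgeR and 0.0315 by DESeq2's Wald test), and Sox9 had one of -0.11. Of 7 tested lymphocyte and platelet markers 0 had an unadjusted p under 0.05 by either tool, but HFD-KO replicate 1 stood apart for the B cell gene Cd79a, with 2.92 CPM against 0.725 to 0.945 CPM in the other libraries. Ms4a1 and Cd3e, named after their values were seen, were also highest in this library, at 2.62 and 1.75 CPM. Without HFD-KO replicate 2, which leaves that library alone in its group, 3 of the 7 were higher at an unadjusted p under 0.05 and 2 at an adjusted p under 0.05 by edgeR. Pf4, the most abundant, had a log2 fold change of -0.35.

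The wider set of endothelial genes was followed through 3 lists that hold 63 genes besides the 10, of which 60 were tested. Their summed level was 1579 and 1652 CPM in HFD-WT and 1511 and 1565 CPM in HFD-KO livers, with a ratio of -0.07 on the log2 scale. Of this sum, Ctsl, which many cells make, held 620.9 and 599.5 CPM in HFD-WT and 552.5 and 653.1 CPM in HFD-KO livers. By edgeR 0 of the 60 passed an adjusted p of 0.05, and 2 were lower and 2 were higher at an unadjusted p under 0.05. Of the 60, 22 had a log2 fold change above 0 and 38 below, with a median of -0.11. By DESeq2's Wald test 0 passed, and without HFD-WT replicate 2 the edgeR counts were 0 lower and 0 higher, with 30 above 0 and 31 below and a median of -0.011. Without HFD-KO replicate 1, 3 were lower and 2 were higher at an adjusted p under 0.05 by edgeR. Mrc1, the mannose receptor of sinusoidal endothelium and macrophages, had 33.7 and 39.0 CPM in HFD-WT and 28.0 and 30.9 CPM in HFD-KO livers (log2 fold change -0.30, SE 0.10, adjusted p = 0.451 by edgeR). Igfbp7, a secreted protein of the vascular basement membrane, had 81.6 and 86.2 CPM in HFD-WT and 73.3 and 52.6 CPM in HFD-KO livers (log2 fold change -0.41, SE 0.15, adjusted p = 0.475 by edgeR). Nrp1, a co-receptor for VEGF and semaphorins, had 27.4 and 25.2 CPM in HFD-WT and 29.4 and 45.9 CPM in HFD-KO livers (log2 fold change 0.52, SE 0.19, adjusted p = 0.487 by edgeR), with HFD-KO replicate 2 well above the others. For Igfbp7 the same library lay furthest from the others, at 52.6 CPM. A fit without HFD-KO replicate 1 leaves that library alone in its group. S1pr1, the endothelial receptor for sphingosine 1-phosphate, had a log2 fold change of 0.22 (SE 0.09, adjusted p = 0.537 by edgeR).

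By list, the median log2 fold change was -0.08 over 22 other sinusoidal genes, -0.09 over 24 general endothelial genes and -0.19 over 14 genes of large vessels and capillaries. Besides Igfbp7 and S1pr1, the 2 genes with the highest TPM in each of these lists were Ctsl, a lysosomal protease made by many cells, at -0.02, Egfl7 at 0.19, Plvap, the diaphragm protein of continuous and fenestrated capillaries, at -0.27, and Ltbp4 at -0.27. By their profile over the 4 libraries the genes of these lists nearest to the mean of the 10 members were Nos3, Cdh13, Robo4, Flt4 and Ramp2. The root mean square difference of their centred log2 CPM from that mean was between 0.0081 for Nos3 and 0.0453 for Ramp2. The 2 nearest had few reads, 122 to 165 per library for Nos3 and 94 to 125 for Cdh13. Whether such small distances exceed the counting error was not tested. In the mean profile of the members HFD-WT replicate 2 was highest, at 0.15 above the average, and the other 3 libraries lay between -0.09 and -0.02. The members did not share this equally. Relative to the HFD-WT mean, that library was at 1.15 for Lyve1, 1.13 for Stab1 and 1.04 for the sum of the other 8. It was the lowest for Kdr, at 38.5 CPM, and not the highest for Stab2 and Rspo3.

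**Figure D5:**
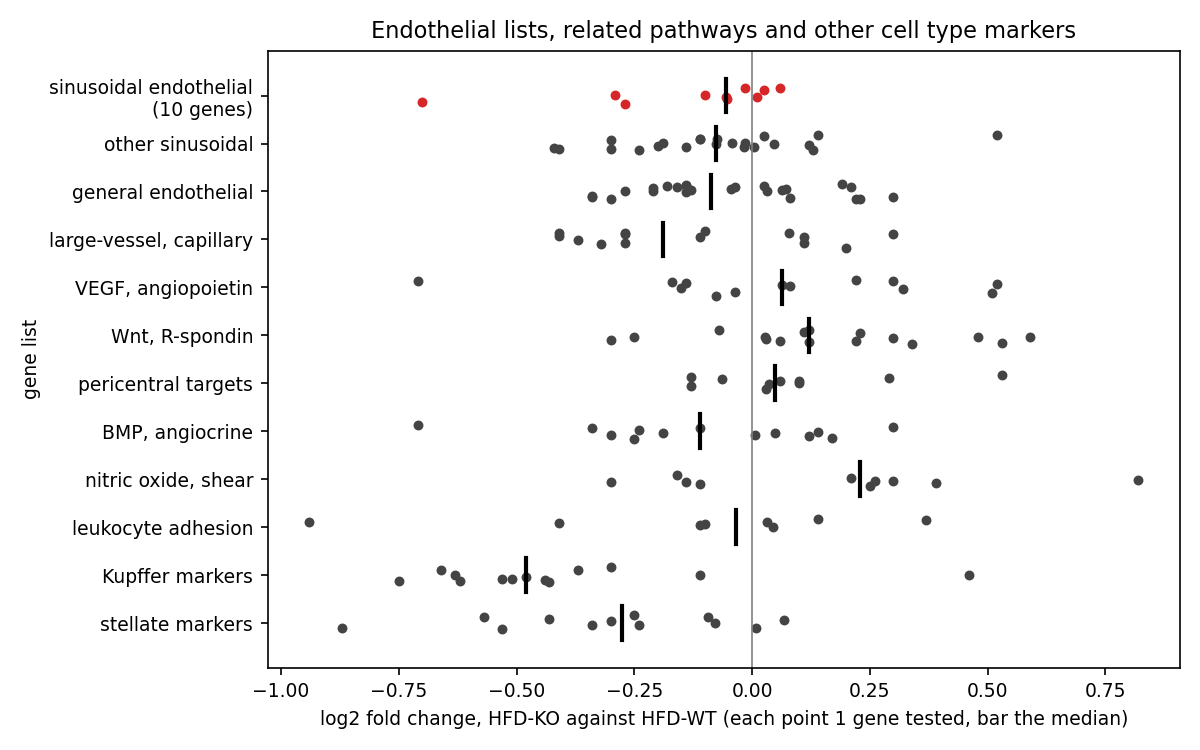
Difference between HFD-KO and HFD-WT livers as a log2 fold change for each tested gene of the lists (points) with the median of each list (black bars) and the 10 sinusoidal endothelial genes in red. The medians of the 4 endothelial lists lie between -0.19 and -0.05, those of the Kupffer and stellate cell markers at -0.48 and -0.27.

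Signals exchanged between hepatocytes and endothelium were described by further lists. Of 13 tested genes of the VEGF and angiopoietin pathway, 0 passed an adjusted p of 0.05 by edgeR, and 2 were higher at an unadjusted p under 0.05, Nrp1 and Vegfa. Without HFD-KO replicate 1, 2 were higher at an adjusted p under 0.05 by edgeR, and without HFD-KO replicate 2, 1 was. Vegfa, the ligand of Kdr, had 96.6 and 87.1 CPM in HFD-WT and 117 and 145 CPM in HFD-KO livers (log2 fold change 0.51, SE 0.12, adjusted p = 0.262 by edgeR and 0.0305 by DESeq2's Wald test). Both HFD-KO libraries were above both HFD-WT libraries for Vegfa, while Kdr differed by 0.03 on the log2 scale, and Vegfb had a log2 fold change of -0.15.

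Of 13 tested BMP and angiocrine genes, Gdf2, which encodes BMP9 of stellate cells, was lower at an unadjusted p under 0.05 (log2 fold change -0.30, adjusted p = 0.438 by edgeR), and 0 passed an adjusted p of 0.05 by either tool. Without HFD-WT replicate 2, 0 were lower at an unadjusted p under 0.05, and without HFD-WT replicate 1 or HFD-KO replicate 1, 2 were. The abundant Hamp, the hepcidin gene that endothelial BMPs induce in hepatocytes, and the co-receptor gene Eng had log2 fold changes of 0.30 and -0.19. Of 10 genes of nitric oxide and shear stress, 0 had an unadjusted p under 0.05 by either tool, the median was 0.23, and it was 0.023 without HFD-KO replicate 1, where 1 gene was higher at an adjusted p under 0.05 by edgeR, and 0.018 without HFD-KO replicate 2. Klf2 and Ednrb had log2 fold changes of 0.26 and 0.25.

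Of 8 tested adhesion genes, 1 was lower and 1 was higher at an unadjusted p under 0.05 and 0 passed an adjusted p of 0.05 by edgeR. Vcam1, the receptor for leukocytes on activated endothelium and on some macrophages, had 24.3 and 39.0 CPM in HFD-WT and 18.5 and 14.4 CPM in HFD-KO livers (log2 fold change -0.94, SE 0.22, adjusted p = 0.271 by edgeR and 0.0088 by DESeq2's Wald test). As for Lyve1 and several other members, HFD-WT replicate 2 had the highest value. Jam2, a junction protein, had 8.94 and 9.96 CPM in HFD-WT and 11.5 and 12.8 CPM in HFD-KO livers (log2 fold change 0.37, adjusted p = 0.445 by edgeR), and the abundant Icam1 and Cd99l2 had log2 fold changes of 0.14 and -0.10.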

How the data were processed

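Libraries were prepared by the authors with a directional kit, sequenced as paired reads, trimmed and aligned to mm10 with the tool of MGI Tech, and quantified in Partek Genomics Suite with GENCODE annotation; the submitters' processing notes also name GRCm39. How multi-mapping reads were handled and whether counting used strand are not given in the sources used here.

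The authors deposited read counts per gene without normalization, the only values tested, together with TPM values, used for levels between genes, and RPKM values, used to derive transcript length. The deposited column headed CPM is a score on an adjusted library size and was not used. CPM were computed from the counts.

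The tests ran in edgeR 4.0.16 (R 4.3.3): filterByExpr, which kept 12967 genes, TMM scaling and the two-sided quasi-likelihood test of HFD-KO against HFD-WT, with Benjamini-Hochberg adjustment over all genes tested. The procedure was tested on simulated data. Alternatives were DESeq2 1.42.0, its size factors, library size alone, no filter, each library left out and a replicate block. Intervals are 95% and cover the spread between libraries, which edgeR estimates partly from all genes tested. Counting errors are standard errors from the read count, not intervals, and cover counting only. Tables and plots used Python 3.11.15, pandas 2.3.3, scipy 1.17.1 and matplotlib 3.10.9; profiles used a pseudocount of 0.5 CPM.

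The members and gene lists were chosen with earlier results of these data known. The genes named were the 10 members, listed genes with an unadjusted p under 0.05, the 2 most abundant genes of each list by TPM, the 5 endothelial genes with the nearest profile, and Adarb1; Glul, Axin2, Lgr5, Wnt9b, Ms4a1, Cd3e and the lowest markers were added after their values were seen. Lists share some genes.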

Additional observations from a re-analysis of the deposited data

How the results depend on the processing

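The count of members lower at an adjusted p under 0.05 was 0 by edgeR, 1 by DESeq2's Wald test, 1 without the filter on low counts, and 0 to 1 when single libraries were left out. At an unadjusted p under 0.05 it was 1, with 2 under library size alone, 2 without the filter, and 1 to 2 when libraries were left out. The other endothelial genes had 2 lower, with 5 under library size alone, 4 without the filter and 0 to 6 without single libraries, and 2 higher, with 1 by DESeq2, 1 under library size alone and 0 to 3 without single libraries. Kupffer cell markers had 9 lower (3 to 10 without single libraries) and 0 higher (0 to 1). At an adjusted p under 0.05 they had 0 lower (0 to 8). The median of the members was -0.054 (-0.12 to 0.0044). The cause of these changes was not tested.

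Library size alone moved the median of all genes by -0.0459 and their split at an unadjusted p under 0.05 from 551 higher and 613 lower to 346 and 894, and turned Pecam1 to -0.04, Kdr to -0.02 and Axin2 to -0.02. With single libraries left out, the log2 fold change changed sign for Pecam1 (-0.11 to 0.13), Stab2 (-0.19 to 0.14), Clec4g (-0.10 to 0.24), Kdr (-0.02 to 0.07), Fcgr2b (-0.13 to 0.02), Wnt2 (-0.29 to 0.07), Alb (-0.04 to 0.28), Axin2 (-0.20 to 0.22), Ctsl (-0.14 to 0.10), Cyp2e1 (-0.06 to 0.19), Hamp (-0.02 to 0.71), Icam1 (-0.03 to 0.29), Notum (-0.01 to 0.23), Oat (-0.05 to 0.26), Pf4 (-0.89 to 0.07), Robo4 (-0.29 to 0.01) and Sox9 (-0.56 to 0.25). Lyve1 (-0.91 to -0.47), Stab1 (-0.47 to -0.08), Rspo3 (-0.42 to -0.14) and Gpr182 (-0.11 to -0.01) stayed below 0.

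Over all genes, 10 passed an adjusted p of 0.05 by edgeR, 117 by DESeq2, 162 without the filter, 6 under library size alone, 0 without HFD-WT replicate 2 and 705 without HFD-KO replicate 1. The groups share replicate numbers, but same-numbered libraries did not deviate together (r = -0.0829 across genes). With a replicate block 20 genes passed, 0 of them members, and 1 member was lower at an unadjusted p under 0.05, Lyve1 (adjusted p = 0.175 by edgeR). With 1 library left out its group has 1 library, assumed to vary like the other group. The pairs did not vary alike over the genes of the table. Chi-square per degree of freedom, which measures how far replicate counts differ, was 10.3 for the HFD-WT pair and 41 for the HFD-KO pair. Calls without a HFD-KO library thus rest on the narrower spread of the HFD-WT pair.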
